A study of Mus musculus with 6 samples.

Results

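The Hox genes of all 4 mouse clusters were measured in embryonic stem cells with and without an intact Lsd1 allele. The members were the coding genes whose symbol in the platform annotation begins with Hoxa, Hoxb, Hoxc or Hoxd followed by a number, whether or not their transcript was detected. This gave 38 genes with 57 probes, out of 19057 genes that had a probe of their own. The Hoxa cluster on chromosome 6 contributed 10 genes and 19 probes, and the Hoxb cluster on chromosome 11 contributed 10 genes and 15 probes. The Hoxc cluster on chromosome 15 contributed 9 genes and 11 probes, and the Hoxd cluster on chromosome 2 contributed 9 genes and 12 probes.

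Hox genes encode homeodomain transcription factors that assign identity along the head-to-tail axis of the embryo. They lie in clusters in which low-numbered genes act in more anterior regions and high-numbered genes in more posterior ones, and genes with the same number in different clusters are paralogues. In undifferentiated embryonic stem cells the clusters carry Polycomb repression together with methylation of lysine 4 of histone H3, and the genes are switched on when cells differentiate. Lsd1 (current symbol Kdm1a) encodes a demethylase that removes methyl groups from that lysine.

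Cells of the E14 line, strain 129/Ola, carried either the Δ3 deletion on both Lsd1 alleles (Δ3/Δ3) or the deletion on 1 allele and a loxP-flanked, undeleted second allele (Lox/Δ3). The control cells were therefore already heterozygous for the deletion. RNA of 3 samples per genotype was hybridised to Illumina bead arrays, and no treatment or time point is given. The samples are described as biological replicates, with no word on whether they came from different clones, and p-values reflect only how these 6 samples vary. All 12 embryonic stem cell markers examined were detected, and 0 passed the limma test at either an adjusted or an unadjusted p under 0.05. Of all tested genes, 1.31% passed at the adjusted p. At the unadjusted p, 9.69% were higher and 8.47% lower in Δ3/Δ3 cells. Of the 12 stem cell markers, 5 were higher and 7 lower in Δ3/Δ3 cells, with a median log2 difference of -0.098. Among them Utf1 had a log2 difference of -0.41, Pou5f1 of -0.22 and Nanog of 0.059 (Δ3/Δ3 minus Lox/Δ3, limma adjusted p = 0.335, 0.451 and 0.887).

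Kdm1a, the targeted gene, had raw signals of 1624, 1047 and 1339 on the Δ3/Δ3 arrays, against 5352, 3397 and 4026 on the Lox/Δ3 arrays. The groups did not overlap, and the transcript was lower by 1.56 ± 0.15 (SE) on the log2 scale in Δ3/Δ3 cells (limma adjusted p = 0.0130). The position of the probe relative to the deleted part is not known here. Leaving out Δ3/Δ3 array 1, 2 or 3 ended the call, with limma adjusted p-values of 0.0758, 0.0937 and 0.0787.

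Most Hox transcripts were not detected in either genotype. A probe was taken as detected on an array when its deposited detection p-value was under 0.05. Of the 57 Hox probes, 42 were detected on no array, and 25 of the 38 genes had no detected probe. The raw signals of the 42 probes lay between 44.9 and 97.5, where the median of all probes on an array was 73.8 to 83.7. Since probes bind with different strength, no Hox probe was ranked against another by its signal.

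Hox probes were detected less often than probes in general, and somewhat more often in Δ3/Δ3 than in Lox/Δ3 cells. The Δ3/Δ3 arrays detected 7, 12 and 14 Hox probes, and the Lox/Δ3 arrays 6, 10 and 5. The highest Lox/Δ3 array lay within the range of the Δ3/Δ3 arrays, so the 2 sets of counts overlapped. Added over the arrays of a genotype, Hox probes were detected in 33 of 171 possible cases in Δ3/Δ3 cells (19.3%) and in 21 of 171 in Lox/Δ3 cells (12.3%). Over all 45281 probes the shares were 43.1% in Δ3/Δ3 cells and 42.3% in Lox/Δ3 cells. With a stricter detection p of 0.01 the counts were 5, 6 and 6 on the Δ3/Δ3 arrays, against 3, 3 and 4 on the Lox/Δ3 arrays. The share of all probes detected at 0.01 was not counted, so these counts have no background beside them.

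**Figure D1:**
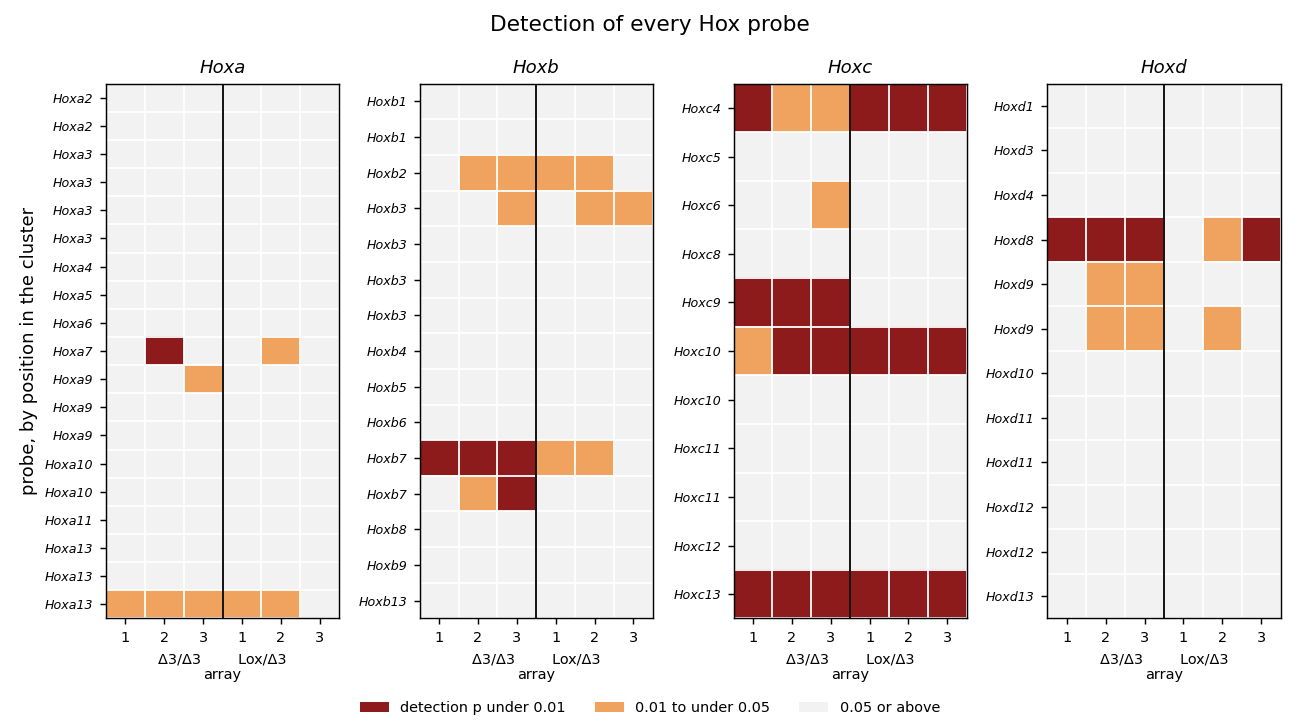
Detection of each of the 57 Hox probes (rows, by cluster and position) on the 3 Δ3/Δ3 and 3 Lox/Δ3 arrays (columns), coloured by the deposited detection p-value. Most squares are empty; detected probes sit at scattered positions, and for Hoxc9 the Δ3/Δ3 columns are filled and the Lox/Δ3 columns empty.

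Transcript of 10 Hox genes was detected on at least 3 of the 6 arrays, which was the requirement for a test. They were Hoxa13, Hoxb2, Hoxb3, Hoxb7, Hoxc4, Hoxc9, Hoxc10, Hoxc13, Hoxd8 and Hoxd9. Of these, 0 passed 0.05 after Benjamini-Hochberg adjustment of the limma p-values, beside 1.31% of the 10712 genes tested. With other processing some did, while the count over all 10712 genes rose from 140. With median scaling in place of quantile normalization 2 passed (Hoxc9 and Hoxd8), beside 261 of all tested genes. With arrays weighted by quality 3 passed (Hoxb7, Hoxc9 and Hoxd8), beside 511. At an unadjusted limma p under 0.05, 4 of the 10 were higher in Δ3/Δ3 cells (Hoxb7, Hoxc9, Hoxc13 and Hoxd8), beside 9.69% of all tested genes, and 1 was lower (Hoxc4), beside 8.47%. Hoxc9 passed the filter through the Δ3/Δ3 arrays alone, which favours a higher value, and without it 3 were higher. In normalized log2 values the arrays of the genotypes did not overlap for the same 4 higher genes, beside 11.3% of all tested genes. They also did not overlap for 2 lower genes, Hoxc4 and Hoxc10, beside 12.5%. The raw signals of these 2 did overlap. The median log2 difference of the 10 genes was 0.18, with 6 of 10 higher, and that of all tested genes was -0.025, with 46.4% higher. The 10 include Hoxc9, whose entry favours a higher median. Without Hoxc9 the middle value of the remaining genes was that of Hoxb2, 0.047. The Hox median with Hoxc9 included was 0.30 without Δ3/Δ3 array 1, 0.28 without Lox/Δ3 array 2, and 0.11 without Δ3/Δ3 array 2 or Lox/Δ3 array 3. It was 0.061 with array weights, 0.096 to 0.11 with no background correction, an offset of 50 or the authors' values, and 0.066 over all 38 genes with no filter. Stricter filters changed the genes in the median. It was -0.24 over the 3 detected on all 6 arrays (Hoxc4, Hoxc10 and Hoxc13) and 0.69 over the 6 detected at 0.01 on 3 arrays. In whole-culture RNA, more cells with a transcript and more transcript per cell cannot be told apart.

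**Figure D2:**
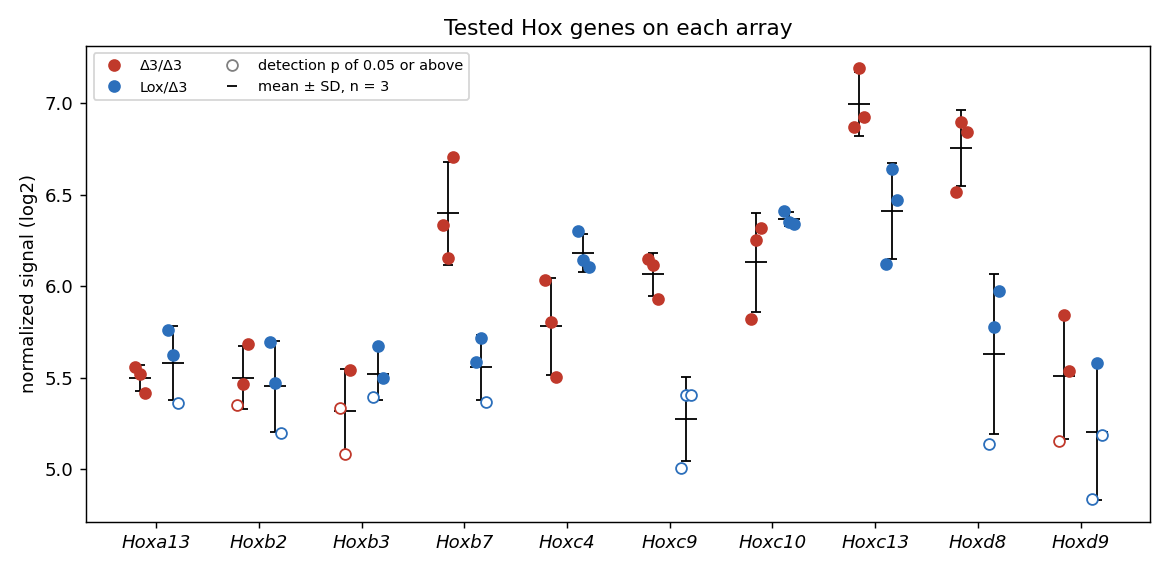
Normalized log2 signal of the 10 tested Hox genes on each array, with Δ3/Δ3 left of Lox/Δ3, means ± SD (n = 3 each), and open points where the probe was not detected. For Hoxb7, Hoxc9, Hoxc13 and Hoxd8 every Δ3/Δ3 point lies above every Lox/Δ3 point, and for Hoxc4 and Hoxc10 below.

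The largest differences were in genes of the middle of the clusters, with positions 7 to 9. Hoxd8, whose product acts in the trunk, had raw signals of 143, 153 and 162 on the Δ3/Δ3 arrays, against 86.8, 100.4 and 109 on the Lox/Δ3 arrays. Every Δ3/Δ3 array was above every Lox/Δ3 array, and the lowest array, Lox/Δ3 array 1, did not detect the transcript. On the normalized log2 scale Hoxd8 averaged 6.75 ± 0.21 in Δ3/Δ3 cells and 5.63 ± 0.44 in Lox/Δ3 cells (SD, n = 3 each). The difference was 1.12 ± 0.23 (SE, 95% interval 0.60 to 1.64), or 2.18-fold, and missed the threshold (limma adjusted p = 0.0598). With Lox/Δ3 array 3 left out it was 1.29 and passed (limma adjusted p = 0.0334). The size depended on the background correction, and was 0.68 with none and 0.68 with the authors' values.

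Hoxb7, which is expressed in the developing kidney ducts and spinal cord, was measured by a pair of probes. The probe that represented the gene had raw signals of 132, 111 and 152 on the Δ3/Δ3 arrays, against 103, 98.2 and 86.1 on the Lox/Δ3 arrays. Each Δ3/Δ3 array and 2 of the Lox/Δ3 arrays detected it, and the groups did not overlap. The normalized log2 mean was 6.40 ± 0.28 in Δ3/Δ3 cells and 5.56 ± 0.18 in Lox/Δ3 cells (SD, n = 3 each), a difference of 0.84 ± 0.18 (SE, 95% interval 0.44 to 1.25) with a limma adjusted p of 0.0630. The difference was 0.49 with no background correction, 0.49 with the authors' values and 0.55 with an offset of 50. The other Hoxb7 probe read 94.0, 88.6 and 104 on the Δ3/Δ3 arrays, against 75.5, 75.4 and 71.3 on the Lox/Δ3 arrays. It gave the same order of the genotypes with no overlap. As no Lox/Δ3 array detected it, its difference is a lower bound of at least 1.11-fold. This bound sets the Δ3/Δ3 mean against, on each Lox/Δ3 array, the higher of the probe's own value and the lowest value of any detected probe. It takes no account of the spread between arrays.

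Hoxc9, a thoracic-level gene that helps to set motor neuron identity in the spinal cord, was detected on each Δ3/Δ3 array but not on any Lox/Δ3 array. Its raw signals were 122, 109 and 108 on the Δ3/Δ3 arrays, against 81.6, 88.3 and 87.3 on the Lox/Δ3 arrays. On the normalized log2 scale it averaged 6.06 ± 0.12 in Δ3/Δ3 cells and 5.27 ± 0.23 in Lox/Δ3 cells (SD, n = 3 each). The measured difference of 0.79 ± 0.15 (SE, 95% interval 0.44 to 1.14) missed the threshold (limma adjusted p = 0.0549). With this background correction the means, bounded in the same way as for Hoxb7, differed by at least 1.52-fold. The bound leaves out the spread between arrays, and the lower end of the interval lies below it. That bound holds for this correction alone, since the measured difference was 0.44 with none, 0.44 with the authors' values and 0.47 with an offset of 50. With Lox/Δ3 array 3 left out it passed (limma adjusted p = 0.0475). It entered the test through the Δ3/Δ3 arrays alone, as 63 of the 10712 tested genes did. The detection p on the Lox/Δ3 arrays was 0.153, 0.0513 and 0.0502, so on a pair of them the probe sat at the edge of detection. Of all 45281 probes, 128 showed this pattern of detection and 42 the opposite one.

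Hoxd9, the neighbour of Hoxd8 on its cluster, showed a smaller difference. Its representative probe read 83.6, 98.5 and 92.2 on the Δ3/Δ3 arrays, against 74.3, 93.9 and 80.2 on the Lox/Δ3 arrays, and the groups overlapped. The log2 difference was 0.31 ± 0.23 (SE, 95% interval -0.23 to 0.85; limma adjusted p = 0.543). It ranged from 0.13 without Lox/Δ3 array 1 to 0.50 without Lox/Δ3 array 2, and was 0.079 with array weights. Its other probe, with 77.6, 92.3 and 93.1 in Δ3/Δ3 cells and 73.2, 72.4 and 74.4 in Lox/Δ3 cells, was seen on 2 Δ3/Δ3 arrays alone and was not tested.

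Of the tested Hox genes, 4 have a promoter in the RefSeq table used here, Hoxa13 among them. Sequences are given for 3, the gene with the largest difference (Hoxd8), its neighbour Hoxd9 and the gene with the largest difference in the opposite direction (Hoxc4). Each runs from 250 bases before the annotated start to 50 bases after it, 5′ to 3′ on the plus strand of GRCm38.p6. Capitals mark matches, on either strand, to the CCAAT box. Hoxd8 lies at chr2:74704365-74704664, Hoxd9 at chr2:74697513-74697812 and Hoxc4 at chr15:103034145-103034444.
Hoxd8: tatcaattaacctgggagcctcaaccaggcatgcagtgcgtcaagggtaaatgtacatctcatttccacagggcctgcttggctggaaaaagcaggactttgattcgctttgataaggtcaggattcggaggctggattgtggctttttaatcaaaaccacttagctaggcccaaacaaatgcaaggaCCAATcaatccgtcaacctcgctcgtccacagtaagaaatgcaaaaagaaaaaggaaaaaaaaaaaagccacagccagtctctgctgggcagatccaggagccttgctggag
Hoxd9: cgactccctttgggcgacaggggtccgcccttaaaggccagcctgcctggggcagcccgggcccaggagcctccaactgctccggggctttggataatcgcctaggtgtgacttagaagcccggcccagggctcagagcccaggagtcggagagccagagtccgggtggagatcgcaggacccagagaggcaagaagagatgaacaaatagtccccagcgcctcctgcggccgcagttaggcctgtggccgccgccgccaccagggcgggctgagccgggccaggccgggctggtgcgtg
Hoxc4: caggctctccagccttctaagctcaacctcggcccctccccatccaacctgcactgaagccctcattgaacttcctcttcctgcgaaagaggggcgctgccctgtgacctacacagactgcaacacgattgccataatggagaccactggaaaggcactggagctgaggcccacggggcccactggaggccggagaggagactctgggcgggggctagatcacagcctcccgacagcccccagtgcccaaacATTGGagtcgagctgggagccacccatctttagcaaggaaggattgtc

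The CpG dinucleotide is the site of DNA methylation in mammals, and promoters rich in it are typical Polycomb targets. The Hoxd9 promoter held 20 CpG, the Hoxc4 promoter 9 and the Hoxd8 promoter 6. The median was 14.5 over the 24 Hox promoters in the table, which belong to 22 genes, and 7 over all 32851 promoters. Hoxd8, with the largest difference between genotypes, thus lay below both medians and Hoxd9 above both. The CCAAT letters were found once each in the Hoxd8 and Hoxc4 promoters and not in that of Hoxd9. They occurred in 62.5% of the Hox promoters and in 37.4% of all promoters. A TATA box (TATAAA) and the joint motif of Hox proteins and their Pbx partners (TGATNNAT) were found in none of the 3 windows. Each of these was present in 16.7% of the Hox promoters, beside 13.6% of all promoters for TATAAA and 8.85% for TGATNNAT. These counts describe the letters in the windows and were not set against the expression values in a test.

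Among the genes with high numbers, Hoxc13, a regulator of hair and nail keratins, was detected on every array. Its raw signals were 168, 176 and 169 on the Δ3/Δ3 arrays, against 128, 142 and 135 on the Lox/Δ3 arrays. The arrays did not overlap, and the log2 difference was 0.58 ± 0.17 (SE, 95% interval 0.19 to 0.98; limma adjusted p = 0.127).

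Hoxc10, a lumbar-level gene, was likewise detected on every array, with 107, 115 and 127 in Δ3/Δ3 cells and 145, 125 and 127 in Lox/Δ3 cells. Its normalized log2 values were lower on all Δ3/Δ3 arrays, by 0.24 ± 0.16 on average, an interval of -0.60 to 0.13 (limma adjusted p = 0.489). A second Hoxc10 probe, detected on no array, stood in the opposite order, with 75.0, 67.2 and 66.3 in Δ3/Δ3 cells and 65.4, 62.9 and 62.0 in Lox/Δ3 cells. Hoxa13, needed for digits and the hindgut, was close to the limit of detection, with 97.0, 87.8 and 88.0 in Δ3/Δ3 cells and 111, 95.1 and 86.0 in Lox/Δ3 cells. The groups overlapped (log2 difference -0.084 ± 0.14 SE, limma adjusted p = 0.813).

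Among the genes with low numbers, Hoxc4, a cervical-level gene, was detected on every array and had the lowest difference of the 10. It had raw signals of 117, 97.1 and 91.0 on the Δ3/Δ3 arrays, against 138, 115 and 114 on the Lox/Δ3 arrays. After normalization all Δ3/Δ3 values lay below all Lox/Δ3 values, with a log2 difference of -0.40 ± 0.16 (SE, 95% interval -0.77 to -0.033; limma adjusted p = 0.236). Hoxb2 and Hoxb3, both hindbrain genes, were at the edge of detection and overlapped between genotypes. Hoxb2 read 90.2, 86.1 and 97.6 in Δ3/Δ3 cells and 108, 90.4 and 80.6 in Lox/Δ3 cells, a log2 difference of 0.047 ± 0.17 (SE, limma adjusted p = 0.920). Hoxb3 read 89.6, 74.6 and 92.3 in Δ3/Δ3 cells and 96.1, 96.6 and 90.4 in Lox/Δ3 cells, a log2 difference of -0.20 ± 0.16 (SE, limma adjusted p = 0.554).

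By position, the detections that differed between the genotypes were mostly those of the middle genes. This grouping of positions was made after the values were seen, so it is a description without a test. Probes of positions 7 to 9 (9 genes, 13 probes) were detected in 17 of 39 possible cases in Δ3/Δ3 cells and in 6 of 39 in Lox/Δ3 cells. The corresponding counts were 3 and 4 of 45 for positions 1 to 3, 4 and 3 of 30 for positions 4 to 6, and 9 and 8 of 57 for positions 10 to 13. In the middle group 6 of 13 probes had all Δ3/Δ3 values above all Lox/Δ3 values and 0 below. These were both Hoxb7 probes, Hoxc9 and Hoxd8, a Hoxa9 probe detected on 1 array and a Hoxb9 probe detected on none. In the other groups, in the same order, 2 of 15, 0 of 10 and 3 of 19 were above and 0, 2 and 1 below. Over the arrays as a whole such probes made up 11.3% (above) and 12.5% (below) of tested genes, and 5.58% and 5.75% of probes detected on no array.

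**Figure D3:**
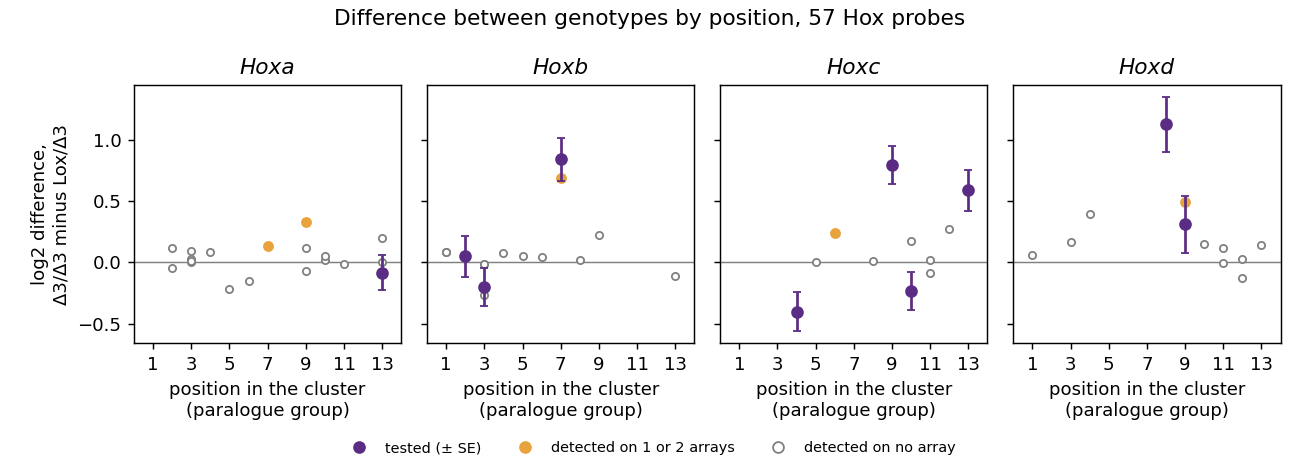
Log2 difference (Δ3/Δ3 minus Lox/Δ3) of all 57 Hox probes against position in the cluster, with 1 panel per cluster and SE bars on tested genes. Hoxb7, Hoxc9 and Hoxd8 stand between 0.79 and 1.12; open circles were detected on no array and carry no measurable level.

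By cluster, the Hoxc genes were the ones most often detected, in 13 of 33 possible cases in Δ3/Δ3 cells and in 9 of 33 in Lox/Δ3 cells. Hoxd probes were detected in 7 of 36 cases in Δ3/Δ3 cells and in 3 of 36 in Lox/Δ3 cells, all of them in Hoxd8 and Hoxd9. Hoxb probes were detected in 8 and 6 of 45 cases and Hoxa probes in 5 and 3 of 57 cases, Δ3/Δ3 first. Differences between neighbouring genes were not tested. In the Hoxc cluster the log2 values of Hoxc9 were higher and those of its neighbour Hoxc10 (1 of its 2 probes) lower on all Δ3/Δ3 arrays, and Hoxc8, on the other side, was not detected. In the Hoxb cluster Hoxb6 and Hoxb8, which flank Hoxb7, were detected on no array.

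A further 3 genes, Hoxa7, Hoxa9 and Hoxc6, were detected on 1 or 2 arrays only and were not tested. Hoxa7 read 85.9, 102 and 81.5 in Δ3/Δ3 cells and 93.2, 89.1 and 82.1 in Lox/Δ3 cells and was detected on 1 array of each genotype. Hoxa9, a regulator of blood stem cells, was detected by 1 of its 3 probes on 1 Δ3/Δ3 array, with 90.8, 79.9 and 92.4 in Δ3/Δ3 cells and 87.1, 73.0 and 78.1 in Lox/Δ3 cells. Hoxc6 was likewise detected on 1 Δ3/Δ3 array, with 73.9, 77.3 and 87.9 in Δ3/Δ3 cells and 79.0, 69.1 and 74 in Lox/Δ3 cells. All 3 overlapped in raw signal, and after normalization the values of that Hoxa9 probe were higher on every Δ3/Δ3 array than on any Lox/Δ3 array.

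No Hox probe was detected on all Lox/Δ3 arrays and on no Δ3/Δ3 array (0). The 25 genes detected on no array were Hoxa2, Hoxa3, Hoxa4, Hoxa5, Hoxa6, Hoxa10 and Hoxa11; Hoxb1, Hoxb4, Hoxb5, Hoxb6, Hoxb8, Hoxb9 and Hoxb13; Hoxc5, Hoxc8, Hoxc11 and Hoxc12; and Hoxd1, Hoxd3, Hoxd4, Hoxd10, Hoxd11, Hoxd12 and Hoxd13. Hoxb1 and Hoxa2, early hindbrain genes, are thus among those without a detectable transcript in either genotype. Of the 42 probes detected on no array, 5 had all Δ3/Δ3 log2 values above all Lox/Δ3 values, beside 5.58% of the 23595 such probes on the arrays. In the other direction the count was 1, beside 5.75%. Signals at this level give no fold change. The antisense transcript Hoxd3os1, with 2 probes, and the Hoxa-linked long noncoding RNA Hottip were also detected on no array.

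Leaving out each array in turn kept Hoxb7, Hoxc9, Hoxc13 and Hoxd8 higher and Hoxc4 lower in Δ3/Δ3 cells. Hoxd8 ranged from 0.87 without Lox/Δ3 array 1 to 1.29 without Lox/Δ3 array 3, and Hoxb7 from 0.68 without Δ3/Δ3 array 3 to 0.97 without Δ3/Δ3 array 2. Limma adjusted p-values ranged from 0.0334 to 0.170 for Hoxd8, from 0.0475 to 0.16 for Hoxc9 and from 0.0779 to 0.164 for Hoxb7. The published account of the study names Hoxb7 and Hoxd8, so their values here are not independent evidence of a difference.

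**Figure D4:**
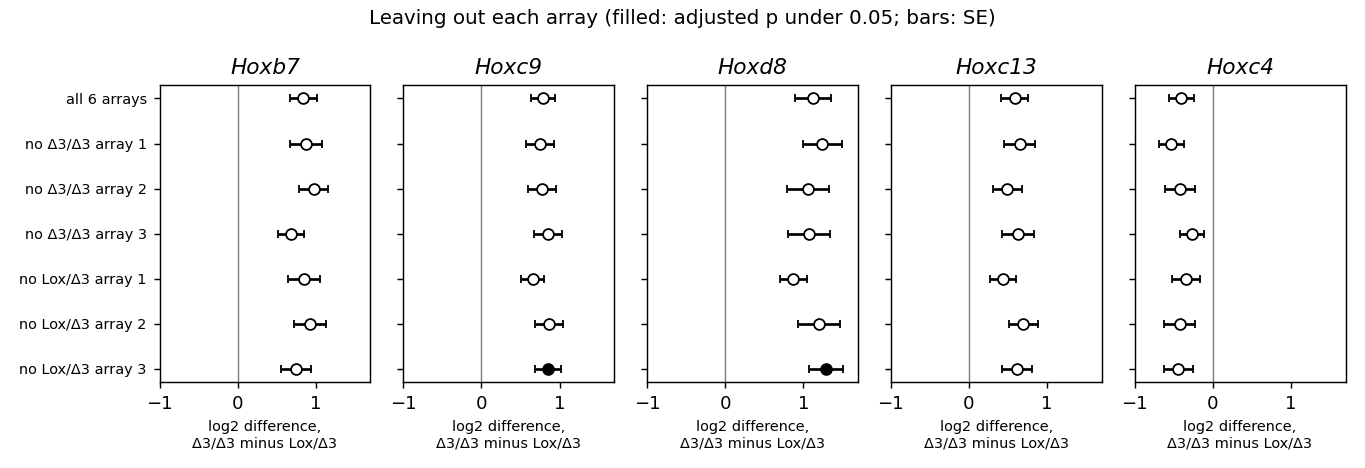
Log2 difference (Δ3/Δ3 minus Lox/Δ3, ± SE) of the 5 Hox genes with an unadjusted limma p under 0.05, on all 6 arrays and without each array. Filled points have an adjusted p under 0.05, which Hoxc9 and Hoxd8 reach without Lox/Δ3 array 3.

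Hox proteins bind DNA together with cofactors of the Pbx, Meis and Pknox families. Of 8 such cofactor genes tested, 0 had a limma adjusted p under 0.05, beside 1.31% of all tested genes. At an unadjusted p under 0.05, 1 was higher and 1 lower, beside 9.69% and 8.47% of all tested genes. Pbx2 was lower, with normalized log2 means of 7.08 ± 0.14 in Δ3/Δ3 cells and 7.71 ± 0.12 in Lox/Δ3 cells (SD, n = 3 each) and a difference of -0.62 ± 0.13 (SE, limma adjusted p = 0.0660). All 3 Pbx2 probes had every Δ3/Δ3 value below every Lox/Δ3 value. Meis2 was higher, at 9.13 ± 0.14 in Δ3/Δ3 cells and 8.63 ± 0.36 in Lox/Δ3 cells, a difference of 0.50 ± 0.19 (SE, limma adjusted p = 0.227). The list's median log2 difference was -0.17.

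Of 14 tested genes that act on Hox expression, 0 had a limma adjusted p under 0.05, beside 1.31% of all tested genes. They include retinoic acid receptors, Cdx1 and the histone methyltransferase gene Kmt2a. At an unadjusted p under 0.05, 2 were higher and 1 was lower, beside 9.69% and 8.47% of all tested genes. Crabp1, a cytoplasmic retinoic acid binding protein, stood at 8.47 ± 0.036 in Δ3/Δ3 cells and 7.81 ± 0.15 in Lox/Δ3 cells (log2, SD, n = 3 each; difference 0.66 ± 0.13 SE, limma adjusted p = 0.0560). Rarg, a retinoic acid receptor, stood at 8.0 ± 0.41 in Δ3/Δ3 cells and 9.0 ± 0.43 in Lox/Δ3 cells (difference -0.996 ± 0.26 SE, limma adjusted p = 0.106), and the published account of the study names it too. The Hox activators Cdx4 and Gdf11 and the receptor Rarb, an early retinoic acid target, were detected on no array. Cdx2 was detected on 1 array of each genotype and was not tested. The median log2 difference of the list was -0.056.

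Of 21 tested genes that lie beside the clusters, 0 had a limma adjusted p under 0.05, 4 were higher and 1 was lower at an unadjusted p under 0.05 (all tested genes 1.31%, 9.69% and 8.47%). The median was 0.025. Copz2, a coat protein subunit gene, had the smallest p, with 9.40 ± 0.36 in Δ3/Δ3 cells and 7.99 ± 0.76 in Lox/Δ3 cells (log2, SD, n = 3 each) and a difference of 1.40 ± 0.36 (SE, limma adjusted p = 0.0972). All 4 of its kept probes had every Δ3/Δ3 value above every Lox/Δ3 value. Snx10, a sorting nexin gene, followed with a difference of 0.51 ± 0.14 (SE, limma adjusted p = 0.120).

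**Figure D5:**
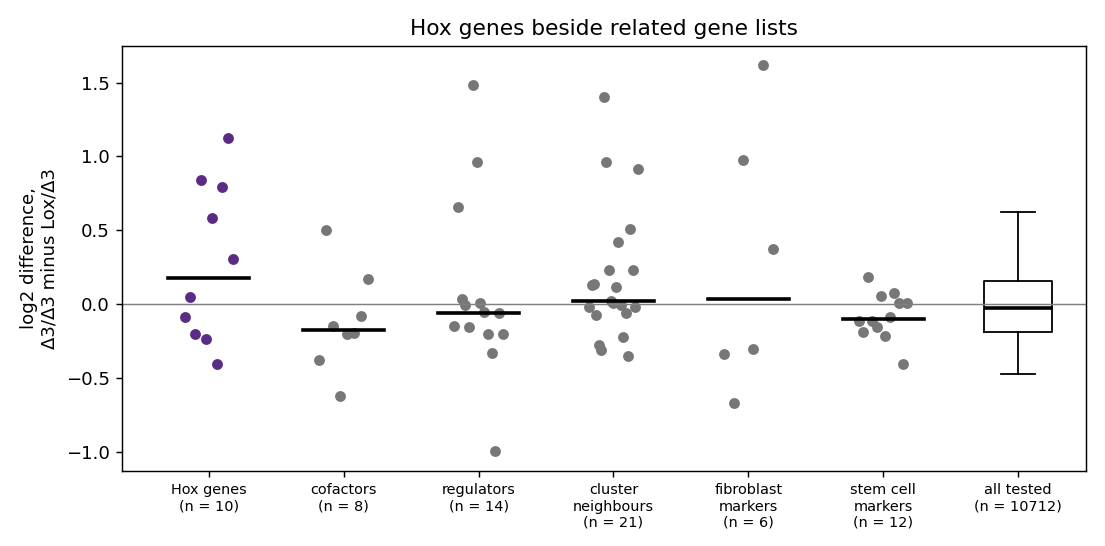
Log2 difference (Δ3/Δ3 minus Lox/Δ3) of each tested gene, by list, with the list median as a bar; the box at the right shows all 10712 tested genes (quartiles, whiskers from the 5th to the 95th percentile). The medians are 0.18 for the Hox genes (Hoxc9 included), -0.17 for cofactors, -0.056 for regulators and 0.025 for cluster neighbours.

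Differentiated cells express Hox genes, so markers of other cell types were read on the same arrays. Of 16 fibroblast markers with a probe, 6 were tested, 0 had a limma adjusted p under 0.05, and 2 were higher at an unadjusted p under 0.05, beside 9.69% of all tested genes. These were Thy1, a surface glycoprotein, with a log2 difference of 1.62 ± 0.30, and Mmp2, a matrix protease, with 0.97 ± 0.20 (SE, limma adjusted p = 0.0523 and 0.0599). Of the other 4, Twist1 had a difference of 0.37, Col1a1 of -0.67, Acta2 of -0.34 and Pdgfra of -0.30. The collagens Col1a2 and Col3a1 and the genes Dcn, Lum, Postn, Prrx1, S100a4 and Twist2 were detected on no array. The summed linear signal of the list, which here and below takes in undetected members, overlapped. It was 6416 to 11258 on the Δ3/Δ3 arrays and 4366 to 14409 on the Lox/Δ3 arrays. Acta2 weighed heavily in it, so the sum says little of the other members. The raw signals of Acta2 were 4101, 6390 and 2445 in Δ3/Δ3 cells and 15138.5, 5680 and 1933 in Lox/Δ3 cells.

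Of 12 markers of the primitive streak and mesoderm with a probe, 4 were tested, and 2 were higher at an unadjusted limma p under 0.05, beside 9.69% of all tested genes. Eomes had a log2 difference of 0.44 ± 0.13 and Gsc of 0.60 ± 0.26 (SE, limma adjusted p = 0.137 and 0.272). A second Eomes probe, detected on 1 array of each genotype and not tested, overlapped between genotypes. It read 78.5, 86.1 and 86.1 on the Δ3/Δ3 arrays, against 73.2, 74.1 and 97.1 on the Lox/Δ3 arrays. The other tested members, Wnt3a and Tbx6, had differences of -0.47 and -0.18. The list's summed signal, undetected members included, was 503 to 512 on the Δ3/Δ3 arrays, above the 423 to 476 on the Lox/Δ3 arrays. Of its members, Mixl1, Mesp1, Mesp2, Lhx1, Foxf1, Hand1 and Wnt3 were detected on no array. Fgf8, also in the sum, was detected on 2 Δ3/Δ3 arrays and no Lox/Δ3 array and was not tested. Its raw signals were 132, 84.3 and 84.8 on the Δ3/Δ3 arrays, against 71.8, 81.9 and 82.6 on the Lox/Δ3 arrays. The sums of the 10 blood markers, undetected members included, also did not overlap. They were 443 to 492 on the Δ3/Δ3 arrays, against 411 to 439 on the Lox/Δ3 arrays. The sums of the 12 embryonic stem cell markers did not overlap either, and were lower in Δ3/Δ3 cells. Those sums were 95823 to 100128 on the Δ3/Δ3 arrays, against 100791 to 108818 on the Lox/Δ3 arrays. Of single tested genes, 11.3% were higher in Δ3/Δ3 cells without overlap, and 12.5% were lower. No such share was taken for sums of other gene lists. The median log2 difference of the tested blood markers was 0.022. Of the 4 tested, Lmo2 had a log2 difference of 0.61 ± 0.17 and Itga2b of 0.24 ± 0.18 (SE, limma adjusted p = 0.117 and 0.523). Cd34 and Hbb-bh1 had -0.22 and -0.20, and Gata1, Tal1, Runx1, Ptprc and Hba-x were detected on no array.

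The 11 neural and hindbrain markers overlapped, with sums of 695 to 1337 on the Δ3/Δ3 arrays and 579 to 891 on the Lox/Δ3 arrays. Of the 4 tested, Egr2 had a log2 difference of 1.48 ± 0.85 and Tubb3 of -0.29 ± 0.17 (SE, limma adjusted p = 0.418 and 0.428), and Pax3, Pax6, Pax7, Sox1, Olig2 and Neurog1 were detected on no array. The 8 endoderm markers overlapped too, with 463 to 600 on the Δ3/Δ3 arrays and 421 to 1044 on the Lox/Δ3 arrays. Of the 4 tested, Foxa1 had a log2 difference of 0.76 ± 0.31 and Gata4 of -0.27 ± 0.14 (SE, limma adjusted p = 0.245 and 0.347), and Afp, Foxa2 and Ttr were detected on no array. In these lists 0 genes had a limma adjusted p under 0.05, and the part of such cells in the Hox values was not tested.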

How the data were processed

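Total RNA of 6 samples, 3 Δ3/Δ3 and 3 Lox/Δ3 by their titles, was measured as biotinylated cRNA on Illumina arrays, per the labels' protocols. The authors deposited non-normalized intensity values, per the file headers, 1 per probe and array for 45281 probes. Each has a deposited detection p-value beside it, ordered as that array's intensity without exception (0 violations). The lowest intensity on an array was 36.0 to 39.7, so no background had been subtracted to 0. How the p-value was made is not given in the sources used here. The authors' value table holds the same intensity values times 1 constant per array, from 11.9 to 13.6.

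Probes were named from the platform annotation, and 34807 of 34885 single-symbol probes were updated by gene ID through RefSeq (GRCm38.p6), used for names, chromosomes and promoters. Signals were corrected with limma's nec (offset 16), quantile normalized and taken to log2. Probes detected (p under 0.05) on 3 of 6 arrays were kept (19652), with the brightest on average representing each of 10712 genes. limma (lmFit, eBayes; two-sided) compared the genotypes over all genes with Benjamini-Hochberg adjustment at 0.05. The number of arrays limits the precision, and the offset shrinks the differences of dim probes. Probe sequences were not used, so binding to paralogues was not examined. The fit was tested on simulated data.

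All 38 Hox genes are accounted for, with values for those detected on 3 arrays. From each gene list the 2 members of smallest p are given. Evx1 and Evx2 are both regulators and cluster neighbours, and Egr2 is both a regulator and a neural marker. The members and lists were chosen with earlier results of these data known. Alternatives covered scaling, background, offset, filters, the authors' values, probe choice, array weights, a replicate block and each array left out. R 4.3.3, limma 3.58.1, Python 3.11.15 and matplotlib 3.10.9 were used.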

Additional observations from a re-analysis of the deposited data

How the results depend on the processing

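Over the alternatives that could test them (17 for Kdm1a, Hoxc4, Hoxc10 and Hoxc13, fewer for Hox genes that a stricter filter removed), the 10 Hox genes and Kdm1a kept their direction, except where 1 array was left out: Hoxb2 then ranged from -0.081 to 0.17, below 0 without Δ3/Δ3 array 3 (-0.046) and without Lox/Δ3 array 3 (-0.081), and Hoxa13 from -0.19 to 0.0057, above 0 without Lox/Δ3 array 1. The count of Hox genes with a limma adjusted p under 0.05, 0 as processed above, was 2 with median scaling (Hoxc9 and Hoxd8, adjusted p = 0.0408 and 0.0375), 3 with array weights (Hoxb7, Hoxc9 and Hoxd8, adjusted p = 0.0381, 0.0314 and 0.0245) and 0 to 2 with an array left out. It was 0 with cyclic loess, no background correction, the offset of 50, the authors' values, no filter, a detection p of 0.01 and each probe on its own, with adjusted p-values of Hoxd8 from 0.0549 to 0.131. It was also 0 with detection on all 6 arrays, which left only Hoxc4, Hoxc10 and Hoxc13 to test. At an unadjusted limma p under 0.05 there were 8 of 38 Hox genes with no filter, beside 2777 of 19057 genes. With detection on all 6 arrays there were 2 of 3, beside 1697 of 9564, and with a detection p of 0.01 there were 5 of 6, beside 1791 of 9562. Each probe on its own gave 5 of 10, beside 3230 of 19652. Cyclic loess, no background correction, the offset of 50 and the authors' values each gave 4 of 10, beside 1885 to 1994 of 10712. The count over all genes, 140 as processed above, was 261 with median scaling, 24 with no filter, 80 with detection on all 6 arrays, 226 with each probe on its own, 511 with array weights and 0 to 283 with an array left out; it was 0 when any Δ3/Δ3 array was left out (1550, 1796 and 1605 genes at an unadjusted limma p under 0.05 for arrays 1, 2 and 3) and 44, 61 and 283 without Lox/Δ3 array 1, 2 and 3. Hoxc4 was -0.23 with no background correction and with the authors' values, -0.26 with an offset of 50 and -0.26 without Δ3/Δ3 array 3, and Hoxc13 was 0.39 with the authors' values. Hoxc10 was -0.082 without Δ3/Δ3 array 1, and Hoxb3 -0.083 without Δ3/Δ3 array 2. Kdm1a ranged from -1.65 to -1.45 with an array left out. With a detection p of 0.01 the mean number of Hox probes detected was 5.67 on the Δ3/Δ3 and 3.33 on the Lox/Δ3 arrays, against 11 and 7 at 0.05. The median difference of the tested Hox genes was -0.24 over the 3 genes detected on all 6 arrays and 0.69 over the 6 detected at 0.01. The causes were not tested.

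With the replicate number as a block (replicate block), 371 genes and 1 Hox gene, Hoxd8, had a limma adjusted p under 0.05 (0.0230 for Hoxd8). The deviations of same-numbered arrays correlated across genes at 0.36, 0.067 and 0.40, and Δ3/Δ3 array 2 correlated more with Lox/Δ3 array 3 (0.13) than with its own number, so the numbers were not taken as pairs.

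Signal over background limits the account: 25 of the 38 genes were detected on no array, and a difference among them was not detectable.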
